A study of Homo sapiens with 22 samples.

Results

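Stretches of chromatin with a peak of accessibility in the myeloma line KMS11 at day 0, with none in the KMS11 libraries of genotype TKO and none in another myeloma line, KMS34, were followed through 10 days of culture with the compound NSD2LDD or with its vehicle DMSO. Openness was read from the peaks of an ATAC-seq assay, in which the transposase Tn5 cuts accessible DNA and a peak marks a place with more cuts than its background. The peaks of 22 libraries on the 22 autosomes and X were merged where they touched, which gave 96160 regions, and a region counted as called in a library when it held any peak of that library. A region was chosen when it was called in both KMS11 day 0 libraries, in neither TKO library and in neither KMS34 day 0 library. These regions number 1128, which is 1.17% of all regions, 5.08% of the 22219 regions called in both KMS11 day 0 libraries and 40.9% of the 2760 of those that neither TKO library held. They are called the KMS11-private lost regions here. Their values in the 6 day 0 libraries chose them, so the regions are chosen by called peaks in those libraries, whose values are given as a description, and only the 16 libraries of days 4 and 10 bear on what the regions did afterwards.

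KMS11 and KMS34 are cultured plasma cell tumour lines that carry the translocation t(4;14). The groups used are KMS11 in NSD2LDD and in DMSO at day 4 and at day 10, KMS34 in NSD2LDD and in DMSO at the same days, and the day 0 groups KMS11 TKO, KMS34 and KMS11, for which no treatment is named, with 2 libraries each and 11 groups in all. The labels give TKO as the genotype of its libraries and do not spell it out, and in the myeloma literature the name is used for a KMS11 clone whose translocated NSD2 allele was inactivated. The study describes NSD2LDD as a degrader of NSD2, which peak lists do not measure. The labels give no dose and do not say whether the 2 libraries of a group came from separate cultures, so the p-values rest on a spread between libraries that may be technical.

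The t(4;14) translocation puts NSD2 under immunoglobulin heavy chain enhancers. NSD2 encodes a histone methyltransferase that places dimethyl marks on lysine 36 of histone H3, mostly between and inside genes, and spread of that mark is known to hold back the silencing mark on lysine 27 of the same histone. Distal accessible sites are commonly enhancers, which bind transcription factors and differ between cell types far more than promoters do.

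The lists hold peaks and no read counts, so depth is unknown and a region without a peak cannot be told from one too weak to call. List length ran from 24979 to 52518 peaks, with 26887 and 30699 in TKO and 36913 and 24979 in KMS11 day 0. It ran from 35388 to 37695 in KMS11 NSD2LDD and from 34115 to 39002 in KMS11 DMSO, so the treated groups had lists of similar length. The choice of regions depended on single day 0 libraries. With KMS11_D0 replicate 2 left out, which has the shortest of all lists, 4829 regions met the remaining criteria, with KMS11_D0 replicate 1 left out 1799, and without 1 or the other TKO or KMS34 day 0 library between 1265 and 1490.

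Of the 1128 regions, 40 overlapped a promoter window of the RefSeq table for GRCh38.p14, which spans 250 bases before to 50 after a start site. The 250 bases before the start site are given for 4 of them, because these are regions that lost their peak in TKO and kept it in every KMS11 library under NSD2LDD. ACVR1 encodes a type I receptor for bone morphogenetic proteins, and the start site shown lies 37.7 kb inside its annotated span. MCTP1 encodes a calcium-binding membrane protein, and its start site shown lies 203.4 kb inside its span. PTGS2 encodes the inducible cyclooxygenase and shares its region with the window of PACERR, and SNX9, a sorting nexin of endocytosis, is 1 of the 2 genes with most of these regions. The windows are chr2:157838631-157838880 on the minus strand, chr5:95081646-95081895 on the minus strand, chr1:186680424-186680673 on the minus strand and chr6:157822996-157823245 on the plus strand, in the order of the sequences, each read 5′ to 3′. Capitals mark matches to the AP-1, NF-Y, TATA box and SP and KLF motifs, whose letters are given further on.
ACVR1: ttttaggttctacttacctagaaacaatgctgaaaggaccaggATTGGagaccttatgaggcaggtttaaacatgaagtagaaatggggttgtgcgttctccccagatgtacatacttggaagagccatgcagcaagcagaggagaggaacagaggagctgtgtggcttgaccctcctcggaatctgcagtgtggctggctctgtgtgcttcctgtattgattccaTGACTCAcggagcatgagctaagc
MCTP1: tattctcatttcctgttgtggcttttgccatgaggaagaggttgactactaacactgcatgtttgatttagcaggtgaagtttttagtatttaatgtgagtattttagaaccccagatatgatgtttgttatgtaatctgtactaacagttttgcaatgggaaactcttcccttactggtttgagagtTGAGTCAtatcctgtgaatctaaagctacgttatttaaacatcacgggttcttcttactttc
PTGS2: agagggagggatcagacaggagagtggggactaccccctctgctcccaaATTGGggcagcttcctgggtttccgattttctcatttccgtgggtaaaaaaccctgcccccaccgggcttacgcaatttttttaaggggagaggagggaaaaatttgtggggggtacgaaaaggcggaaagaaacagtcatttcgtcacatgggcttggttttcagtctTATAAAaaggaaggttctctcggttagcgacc
SNX9: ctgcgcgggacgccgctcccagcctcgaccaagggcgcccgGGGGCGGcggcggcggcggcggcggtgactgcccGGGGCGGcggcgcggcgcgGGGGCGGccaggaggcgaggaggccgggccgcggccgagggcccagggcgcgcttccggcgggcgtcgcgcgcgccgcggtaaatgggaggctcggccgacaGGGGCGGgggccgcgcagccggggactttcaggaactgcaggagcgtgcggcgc

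At day 0, a KMS11-private lost region was a small peak. The median covered length, taken as the mean of both KMS11 day 0 libraries, was 320 bp (quartiles 254 and 419 bp, range 165 to 1169.5 bp). The 2409 regions that were also called in both KMS11 day 0 and in neither KMS34 day 0 library but that both TKO libraries kept, called the KMS11-private kept regions, had a median of 466.5 bp. The 1632 lost regions that KMS34 held at day 0 had 354 bp. At the border of the rule, the 5 chosen regions with the weakest day 0 peak had a −log10 q of 2.01 to 2.12 there, where 2.00 is the smallest in any list. They lie in CDH13, RGS22 and BABAM2, 22604 bp from MAGEE1 and 295153 bp from NFIB. Just outside the rule, 538 regions were called in 1 of the 2 TKO libraries, and the 5 weakest of those TKO peaks had a −log10 q of 2.13 to 2.52.

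Most of the regions lost in TKO had a peak under NSD2LDD. In KMS11 NSD2LDD, 81.7% and 86.3% of the 1128 regions were called at day 4 and 76.5% and 76.4% at day 10. In KMS11 DMSO, 85.3% and 88.7% were called at day 4 and 77.2% and 85.1% at day 10. The libraries of the 2 treatments overlapped at day 4, and at day 10 both NSD2LDD libraries lay below both DMSO libraries, the nearest of them by less than a percentage point. Over both days the share was 80.3% ± 4.76 in NSD2LDD and 84.1% ± 4.85 in DMSO (SD, n = 4 libraries each), a difference of -3.81 percentage points. Both SDs include the change between the days. The SD of single libraries within a group, pooled over the groups, was 3.44 points, which is not the error of a difference between means. The difference was -2.93 points at day 4, smaller in size than that SD, and -4.70 points at day 10. No test was made on a share taken over chosen regions. Without KMS11_DMSO_D10 replicate 1, the lowest DMSO library, the difference was -6.09 points, and with KMS11_D0 replicate 2 left out of the choice of regions it was -1.96 points. In TKO the share was 0 by the rule.

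The same libraries kept other regions of KMS11 day 0 at other shares. Of the KMS11-private kept regions, 98.0% ± 0.882 were called in NSD2LDD and 98.0% ± 0.628 in DMSO (SD, n = 4 libraries each). Of the lost regions shared with KMS34, 82.7% ± 8.79 were called in KMS11 NSD2LDD and 86.4% ± 7.97 in KMS11 DMSO, a difference of -3.71 points. Whether the difference between treatments differs between these classes was not tested.

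**Figure D1:**
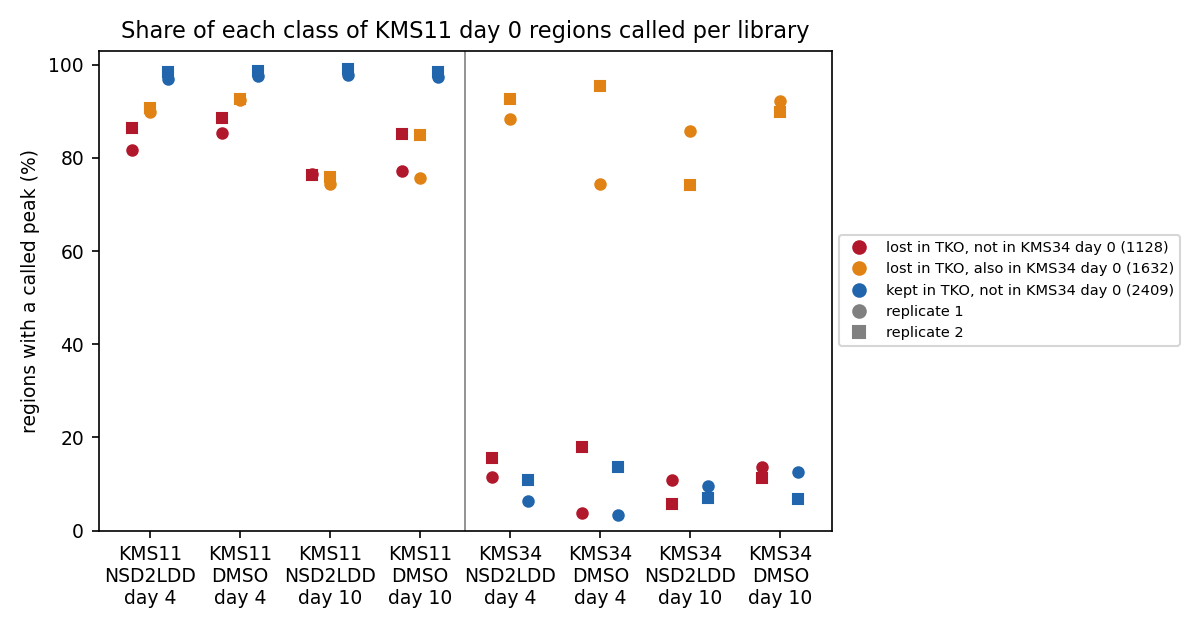
The vertical axis gives the percentage of regions with a called peak in each library, with red for the 1128 KMS11-private lost regions, orange for the 1632 lost regions that KMS34 day 0 held and blue for the 2409 KMS11-private kept regions, and circles and squares for replicates 1 and 2. In KMS11 the red points lie between 76.4% and 88.7% in NSD2LDD and DMSO, and in KMS34 between 3.81% and 17.9%.

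Counted region by region, 1110 of the 1128 (98.4%) were called in at least 1 of the 8 KMS11 libraries of days 4 and 10, and 585 (51.9%) in all 8. At least 1 of the 4 NSD2LDD libraries called 1071 (94.9%) and at least 1 of the 4 DMSO libraries 1096 (97.2%). All 4 NSD2LDD libraries called 675 (59.8%) and all 4 DMSO libraries 733 (65.0%). More DMSO than NSD2LDD libraries called 267 regions, more NSD2LDD than DMSO libraries called 150, and 711 were called in equal numbers. The KMS11-private kept regions were balanced in this count, with 81 called in more DMSO and 82 in more NSD2LDD libraries of 2409. The 1632 lost regions that KMS34 held at day 0 were not, with 373 (22.9%) called in more DMSO and 209 (12.8%) in more NSD2LDD libraries. Those shares were 23.7% and 13.3% of the 1128, so the imbalance is not particular to the KMS11-private lost regions. A full separation of the treatments was rare. A single region, 38992 bp from HSPB3, a small heat shock protein gene, had peaks in 0 of 4 NSD2LDD and 4 of 4 DMSO libraries, which is 0.0887% of the 1128, against 0.042% of the 66687 regions called in at least 2 of the 16 libraries. None had peaks in all NSD2LDD libraries and no DMSO library, a pattern that 0.0615% of all regions showed. At day 10 alone, 35 regions (3.10%) were called in neither NSD2LDD and both DMSO libraries and 12 (1.06%) in both NSD2LDD and neither DMSO library, against 1.06% and 1.67% of all regions. At day 4 these counts were 26 (2.30%) and 14 (1.24%), against 1.16% and 1.2%. Among the 1632 lost regions that KMS34 held at day 0, 64 (3.92%) and 25 (1.53%) had these patterns at day 10. At day 4 it was 17 (1.04%) and 7 (0.429%) of them. The 1128 were chosen for peaks in KMS11, which the 66687 were not, so the shares are set side by side as a description.

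**Figure D2:**
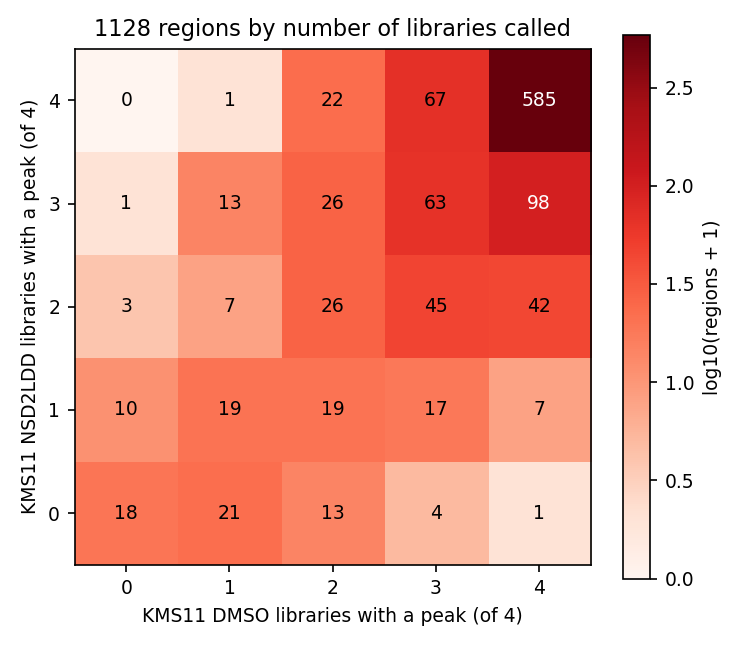
Each cell gives the number of the 1128 KMS11-private lost regions called in that many of the 4 KMS11 NSD2LDD libraries (vertical) and of the 4 KMS11 DMSO libraries (horizontal), with colour on a log10 scale. The corner called everywhere holds 585 regions, the corner called nowhere 18, and the corner called in all DMSO and no NSD2LDD library 1.

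The size of the peaks was then compared region by region. For each library, the bases of a region that its peaks covered were counted, 100 were added, the log2 was taken and the library's median over the 17018 regions called in all 16 libraries was subtracted. A difference is on that scale, it depends on the bases added wherever a group had no peak, and it is no fold change of accessibility. Of the 1128 regions, 1101 passed the filter of a call in at least 2 of the 16 libraries. Between NSD2LDD and DMSO over both days, 0 of them were lower and 0 higher in KMS11 by limma at an adjusted p under 0.05 (4 libraries against 4), against 0.0435% of all regions in each direction. At an unadjusted p under 0.05 the counts were 64 lower and 28 higher of the 1101, against 3463 of all 66687 regions in either direction. The median difference over the 1101 was -0.03 (quartiles -0.32 and 0.18), beside -0.01 over all regions and 0.04 over the KMS11-private kept regions. The -0.01 is the scaling offset of a region with no peak in any of the 8 KMS11 libraries, and not a measured effect. The count of 0 did not hold in several other fits. With quantile normalization 14 regions were called, 12 lower and 2 higher, against 213 and 228 of all 66687 regions. With 30 bases added 13 were called, 11 lower and 2 higher, against 134 and 192. Without limma's trend and robust options 18 were called, 12 lower and 6 higher, against 181 and 260. With every list shortened to its 24979 strongest peaks the rule itself chose another set, of 1224 regions. Of these 1119 were tested, and 27 were lower and 5 higher, against 157 and 154 of all 39090 tested. Without KMS11_DMSO_D10 replicate 1 or 2 or without KMS11_NSD2LDD_D4 replicate 1, 1 region was called. With the KMS11 libraries fitted alone, no region of the 42359 tested was called.

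The largest day 0 peaks of the set were covered under both treatments. The region 140237 bp from THUMPD2 (chr2:39919513-39920795, between genes) was covered by 1050, 1162, 1113 and 1277 bp in KMS11 NSD2LDD, with the day 4 libraries first, by 1168, 1136, 1189 and 1240 bp in KMS11 DMSO and by no peak in TKO. The groups overlapped, and the difference was -0.05 ± 0.21 (SE, n = 4 each, limma adjusted p = 0.998). At KBTBD11, which encodes a kelch and BTB domain protein (chr8:2000558-2001807), NSD2LDD libraries had 1250, 1042, 1098 and 1056 bp and DMSO libraries 1188, 1147, 963 and 1210 bp. At ACVR1 (chr2:157838599-157839820), whose promoter window is printed above, they had 1181, 1089, 1000 and 1207 bp in NSD2LDD and 1080, 1084, 1101 and 1142 bp in DMSO. At both, the libraries of the 2 treatments overlapped. The region in FABP7, a fatty acid binding protein gene of glia, had 1345, 1383, 1263 and 1578 bp in NSD2LDD and 1300, 1408, 680 and 1281 bp in DMSO. The others among the 10 largest lie in RORA, a nuclear receptor gene, in ADARB2, a catalytically inactive relative of RNA-editing enzymes, and in BBS9, a subunit of the ciliary BBSome, or at 429941 bp from RGMA, a repulsive guidance molecule gene, 151801 bp from RBM43 and 110475 bp from KHDRBS3, an RNA-binding protein gene. Each of the 10 had a peak in all NSD2LDD and all DMSO libraries of KMS11, and their differences ran from -0.21 at RGMA to 0.41 at RBM43, none of them called.

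The regions with the largest differences over both days had small peaks and did not pass the test. Near HSPB3 (chr5:54416080-54416707) no NSD2LDD library had a peak, while DMSO libraries had 358 and 318 bp at day 4 and 189 and 626 bp at day 10 (limma adjusted p = 0.128). The groups did not overlap there. They also did not overlap at the region 237866 bp from NOX3, a superoxide-producing oxidase gene, with 0, 225, 0 and 0 bp in NSD2LDD and 262, 324, 226 and 275 bp in DMSO (adjusted p = 0.232). The region 22903 bp from PLEK, which encodes a protein kinase C substrate of blood cells, had no peak in NSD2LDD and 261, 304, 0 and 396 bp in DMSO (adjusted p = 0.223). A pair of regions near PIK3R1, the regulatory subunit gene of phosphoinositide 3-kinase, lay 335673 bp and 44305 bp from it. Each had a peak in 1 of 4 NSD2LDD libraries, at day 4, and in 4 of 4 DMSO libraries (adjusted p = 0.249 and 0.278). On the higher side, the region 174328 bp from LHX8, a LIM homeobox gene, had 501, 219, 296 and 402 bp in NSD2LDD and 248, 0, 0 and 0 bp in DMSO (adjusted p = 0.22). The region 91772 bp from DOK6, an adaptor gene of receptor tyrosine kinases, had 0, 436, 253 and 481 bp in NSD2LDD and no peak in DMSO (adjusted p = 0.25).

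**Figure D3:**
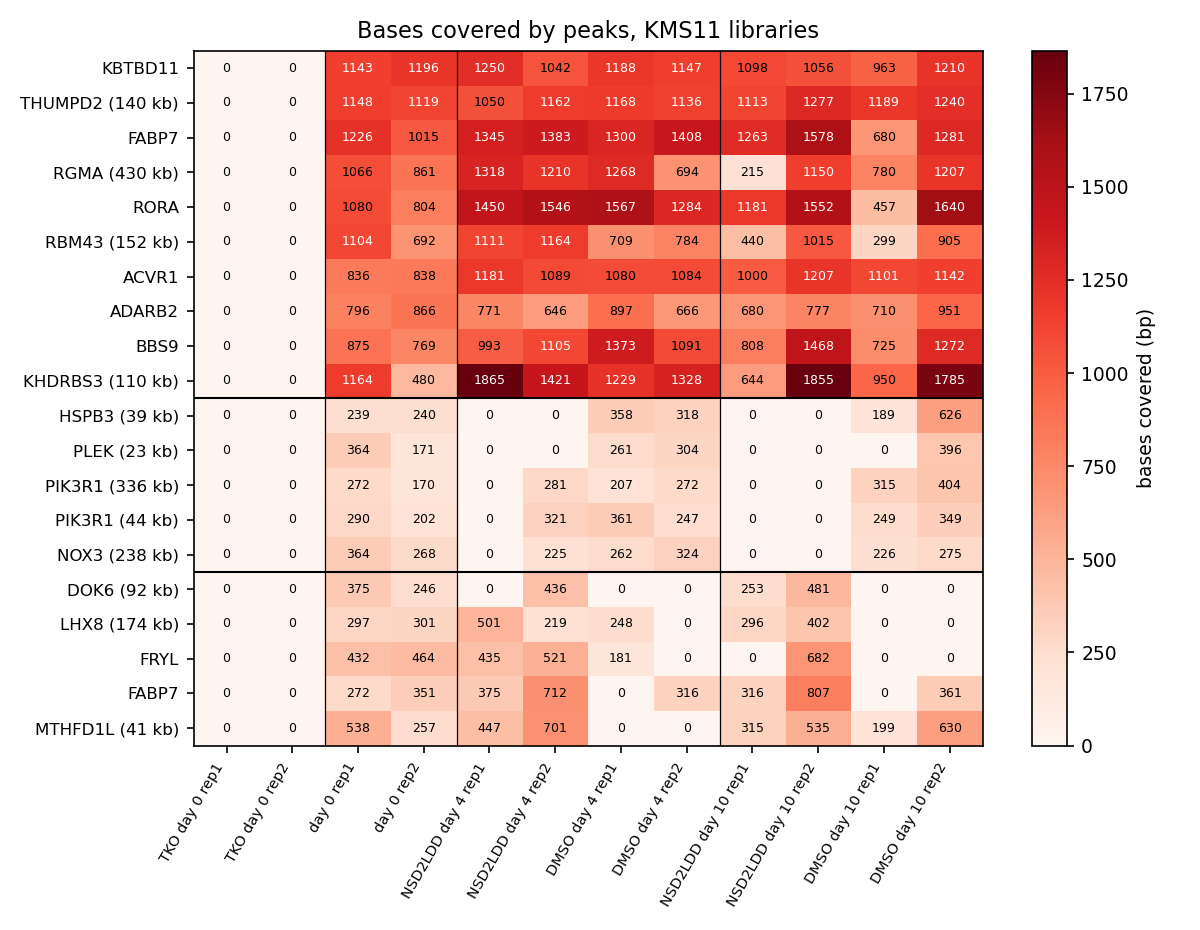
Rows are 20 KMS11-private lost regions, named by the gene that holds them or the nearest one with its distance: the 10 largest at day 0 (top), the 5 lowest and the 5 highest NSD2LDD minus DMSO differences (middle and bottom). Columns are the KMS11 libraries, and numbers and colour give the bases covered by peaks. The top block is covered in all NSD2LDD and DMSO libraries, while the lower blocks hold libraries at 0 beside libraries with a peak.

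Within single days, a few regions passed the test, with 2 libraries against 2. At day 4, 1 of the 1101 regions was lower and 3 were higher in NSD2LDD, 0.0908% and 0.272%, against 0.0405% and 0.09% of all regions. The lower one lies in KIAA1328 (chr18:37222748-37223394), with no peak in the 2 NSD2LDD libraries and 332 and 466 bp in DMSO (limma adjusted p = 0.047). A higher one, 127604 bp from SPANXN2 on X, had 499 and 439 bp in NSD2LDD and no peak in DMSO (adjusted p = 0.047). Another, 40795 bp from MTHFD1L, a mitochondrial folate enzyme gene, had 447 and 701 bp in NSD2LDD and no peak in DMSO (adjusted p = 0.047). With lists of equal length the MTHFD1L region had no day 4 peak in either treatment, so the difference there rests on the weaker peaks of the lists. The count of 4 became 0 without any 1 of the 4 KMS11 day 4 libraries or of the 8 KMS34 libraries, and 2 without KMS11_NSD2LDD_D10 replicate 2.

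The day 10 libraries differed by replicate number more than by treatment in peak width, with a median of 417 bp in NSD2LDD and 446 bp in DMSO for replicate 1, and 633 bp in NSD2LDD and 649 bp in DMSO for replicate 2. At day 10, 7 regions were lower and 1 was higher in NSD2LDD, 0.636% and 0.0908%, against 0.19% and 0.229% of all regions. With the replicate number as a block, 0 were lower and 0 higher, and of all regions 12 were lower and 5 higher, in place of 127 and 153. The region 154493 bp from PDE5A, a cyclic GMP phosphodiesterase gene (chr4:119783297-119783921), had no peak in either NSD2LDD library and 459 and 541 bp in DMSO (limma adjusted p = 0.0147). At day 4 that region had 540 and 464 bp in NSD2LDD and 601 and 592 bp in DMSO. A region in SPATA13, a guanine nucleotide exchange factor gene for Rac (chr13:24096892-24097929), had no day 10 peak in NSD2LDD and 337 and 946 bp in DMSO (adjusted p = 0.0185). The higher one, 609513 bp from ADCYAP1, the gene of the neuropeptide PACAP, had 476 and 525 bp in NSD2LDD and no peak in DMSO (adjusted p = 0.0147). At day 4 it had 473 and 491 bp in NSD2LDD and 428 and 413 bp in DMSO, and the DMSO libraries fell between the days (limma adjusted p = 0.0292). With lists of equal length the ADCYAP1 region had no day 10 peak in either treatment. The median difference at day 10 was -0.06 over the 1101 regions and 0.01 over all regions, the latter again a scaling offset. Leaving out single libraries of either line gave 3 to 7 calls in place of 8, with 3 without KMS11_NSD2LDD_D4 replicate 1 or any KMS34 NSD2LDD library, 4 without KMS11_DMSO_D10 replicate 1, KMS11_DMSO_D4 replicate 1 or KMS11_NSD2LDD_D4 replicate 2, and 5 without replicate 2 of KMS11_DMSO_D10 or KMS11_DMSO_D4, KMS11_NSD2LDD_D10 replicate 1 or either library of KMS34_DMSO_D4. The balance of directions turned without KMS11_DMSO_D10 replicate 2, with 1 lower and 4 higher, and was 2 lower and 2 higher without KMS11_DMSO_D10 replicate 1 or KMS11_NSD2LDD_D4 replicate 2. The difference between NSD2LDD and DMSO itself changed between the days for 2 of the 1101 regions, lower at day 10, and for 0 in the other direction, against 0.0285% and 0.024% of all regions.

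With the KMS11 libraries fitted alone, 0 of the tested KMS11-private lost regions were called at either day, against 0.00708% of all regions lower at day 10 and none in the other cases, at a limma adjusted p of 0.384 for the PDE5A region, 0.206 for SPATA13 and 0.578 for ADCYAP1. In the 16-library fit, 765 of the 1128 regions had no peak in any of the 8 KMS34 libraries, and such groups add libraries with no spread for these regions, so the p-values given for them may be too small.

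Some of these regions passed the test between day 4 and day 10, though not in every fit. In NSD2LDD, 24 of the 1101 regions were lower and 4 higher at day 10 than at day 4 (2 libraries against 2), 2.18% and 0.363%, against 0.528% and 0.343% of all regions. In DMSO, 7 were lower and 1 higher at day 10 than at day 4, 0.636% and 0.0908%, against 0.183% and 0.109% of all regions. All regions were not chosen for KMS11 peaks, so these shares too are set side by side as a description. The share of the 1128 regions called differed by -7.58 points between day 10 and day 4 in NSD2LDD and by -5.81 points in DMSO. The lost regions that KMS34 held at day 0 differed by -15.2 points in NSD2LDD and by -12.2 points in DMSO. The shares of the KMS11-private kept regions differed by 0.664 points in NSD2LDD and by -0.228 points in DMSO. In NSD2LDD the smallest p-values belonged to SPATA13, with no day 10 peak and 1010 and 683 bp at day 4 (limma adjusted p = 0.00741), and to a region in AGAP1, a GTPase-activating protein gene for ARF proteins. AGAP1 had 645 and 638 bp at day 10 and no peak at day 4 (limma adjusted p = 0.0103), while in DMSO it had 174 and 421 bp at day 10 and 221 and 237 bp at day 4. In NSD2LDD no region was called over time without KMS11_NSD2LDD_D4 replicate 1 or replicate 2, and 17 without KMS34_NSD2LDD_D4 replicate 1 or 2. With the KMS11 libraries fitted alone 0 of the KMS11-private lost regions were called, against 0.00944% of all regions lower. In DMSO the count of 8 was between 0 and 5 without KMS11_DMSO_D10 replicate 1, either library of KMS11_DMSO_D4 or KMS11_NSD2LDD_D4, or any 1 KMS34 library, and 0 without KMS11_DMSO_D4 replicate 1.

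In KMS11, 10 regions (0.887% of the 1128) were called in all 4 libraries of day 4 and in none of day 10. Among them were regions in DCC, a netrin receptor gene, and in SH3RF2, PSMD12 and SH3KBP1. A pair (0.177%) was called in all 4 libraries of day 10 and in none of day 4, in ZMAT4 and 986291 bp from COXFA4. Of the 1632 lost regions that KMS34 held at day 0, 32 (1.96%) and 1 (0.0613%) had these patterns. Of the KMS11-private kept regions, 0 and 0 had them. The named regions were picked out after their values were seen.

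The stronger the day 0 peak, the smaller the share lost in TKO and the larger the share called later. The strength of a peak was its percentile within its own list, by the deposited −log10 q, averaged over the KMS11 day 0 libraries. Of the KMS11 day 0 regions that neither KMS34 day 0 library held, 46.1% of the 720 up to percentile 25 were called in neither TKO library, 29.9% of the 1577 from 25 to 50, 22.6% of the 1168 from 50 to 75 and 9.84% of the 610 from 75 to 100. The shares that KMS11 NSD2LDD libraries then called were 64.0%, 82.7%, 92.2% and 98.3% of the lost regions from the lowest to the highest of these bins, against 68.4%, 86.9%, 95.3% and 98.8% in DMSO. NSD2LDD was below DMSO in each bin, and the bins are not replicates. For the KMS11-private kept regions the shares were 91.7%, 97.6%, 99.3% and 99.7% in NSD2LDD and 92.1%, 96.9%, 99.6% and 100.0% in DMSO. In each bin and both treatments the share of the lost regions was below that of the kept ones. The part that peak strength plays in the loss in TKO was not tested.

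**Figure D4:**
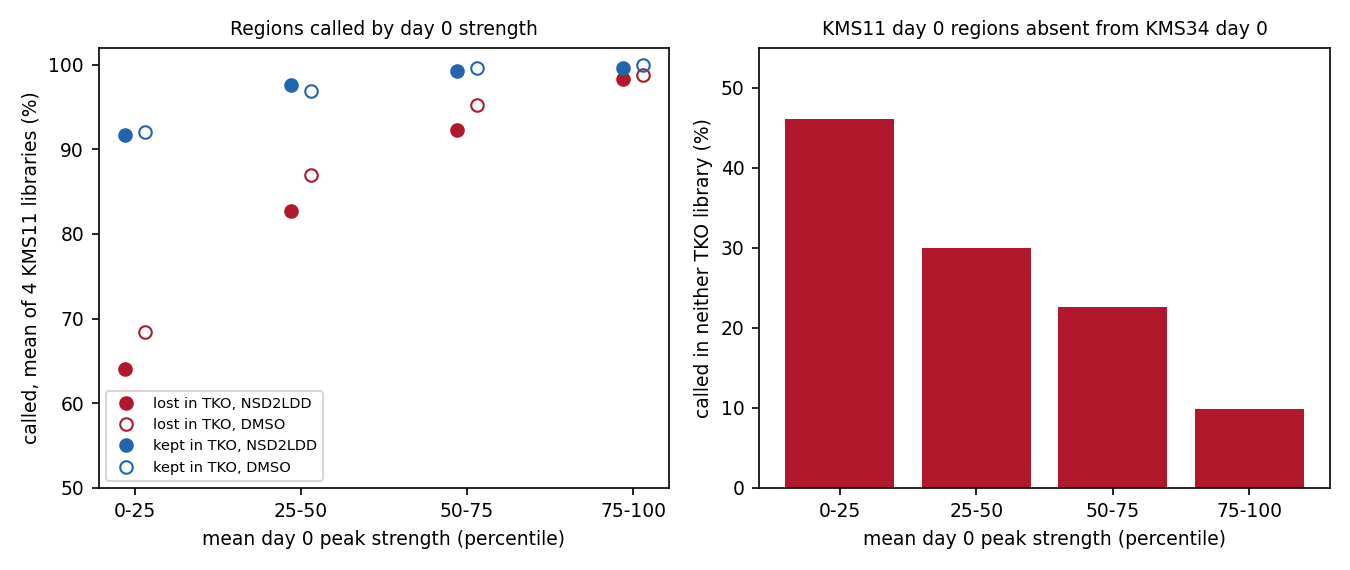
Left, the mean percentage of regions called in 4 KMS11 NSD2LDD (filled) and 4 KMS11 DMSO libraries (open), for regions lost (red) and kept (blue) in TKO, by the mean percentile of their day 0 peaks; the vertical axis starts at 50%. Right, the percentage of KMS11 day 0 regions absent from KMS34 day 0 that neither TKO library called, which is 46.1% in the weakest bin and 9.84% in the strongest.

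Where the regions were called at days 4 and 10, the summit lay close to that of day 0. The median distance of the summit from that of KMS11_D0 replicate 1 was 36.5 to 54 bp in the 8 KMS11 libraries of days 4 and 10, and 46 bp in KMS11_D0 replicate 2. The median covered length of called regions was 335 to 534.5 bp in NSD2LDD and 362 to 543 bp in DMSO. The deposited fold enrichment over the caller's background, the authors' own value for each peak, had medians of 5.73 to 8.04 in NSD2LDD and 6.40 to 8.66 in DMSO.

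In the KMS34 libraries that the rule did not use, most of the regions had no peak either. KMS34 NSD2LDD libraries called 11.6% and 15.6% of the 1128 regions at day 4 and 10.9% and 5.67% at day 10. KMS34 DMSO libraries called 3.81% and 17.9% at day 4 and 13.7% and 11.3% at day 10. Any of these 8 libraries called 363 regions (32.2%), and 765 had no peak in any of them. With lists of equal length the rule chose 1224 regions, of which 187 (15.3%) were called in any of these libraries. Between KMS34 DMSO and KMS11 DMSO (4 libraries against 4), 827 of the 1101 tested regions were lower and 3 higher in KMS34, 75.1% and 0.272%, against 12.4% and 17.9% of all regions. The median difference was -2.12 over the 1101 regions, -2.79 over the KMS11-private kept regions and 0.21 over all regions. THUMPD2, FABP7 and ACVR1 had the smallest p-values, with no peak in any KMS34 library and 680 to 1408 bp in KMS11 DMSO libraries (limma adjusted p = 9.19e-07 for each). Of the KMS11-private kept regions, 2265 of 2409 (94.0%) were lower. Both classes were chosen for day 0 peaks in KMS11 and none in KMS34, so this direction was largely set by the choice. All regions were not chosen so, and the shares are set side by side as a description. Where no KMS34 library has a peak those libraries have no spread, so the p-values of THUMPD2, FABP7 and ACVR1 may be too small.

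A few of the 1128 regions, chosen for no KMS34 peak at day 0, had KMS34 peaks throughout days 4 and 10. Peaks in 8 of 8 KMS34 libraries of days 4 and 10 stood at 5 of them, in ANKRD18A, 20576 bp from VGLL1, 70455 bp from MRPS30, 108145 bp from RAMP3 and 137673 bp from CNTNAP2. The ANKRD18A region had 357, 375, 371 and 353 bp in KMS34 NSD2LDD and 252, 376, 348 and 388 bp in KMS34 DMSO, no peak in KMS34 day 0, and in KMS11 a peak in 1 of 8 treated libraries. In KMS34, 1 region was lower in NSD2LDD than in DMSO and 0 were higher, 0.0908% of the 1101 in the first case, against 0.078% and 0.117% of all regions. It lies 38875 bp from OSMR, the oncostatin M receptor gene, with no peak in the 4 NSD2LDD libraries and 241, 216, 222 and 198 bp in DMSO (limma adjusted p = 0.014). The count of 1 became 2 to 5 without either library of KMS34_NSD2LDD_D4 or KMS34_NSD2LDD_D10 or without KMS34_DMSO_D4 replicate 1. At the same place KMS11 NSD2LDD had 246 and 235 bp at day 4 and no peak at day 10, and KMS11 DMSO had 315, 320, 166 and 267 bp. The difference of the NSD2LDD effect between the lines passed for 0 of the 1101 regions, against 0.003% lower and 0.0015% higher of all regions. With an unadjusted p under 0.05 there were 26 lower and 39 higher, against 4441 of all 66687 regions in either direction.

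Most of the regions lay away from gene ends. Within 1 kb of an end of a protein-coding gene were 46 of the 1128 (4.08%), against 9.34% of the KMS11-private kept regions and 41.5% of all regions called in both KMS11 day 0 libraries. In the body of a protein-coding gene lay 507 (44.9%), in another gene's body only 152 (13.5%), and outside genes 423 (37.5%), against 26.1% of the kept regions and 19.1% of all day 0 regions. In all, 388 regions (34.4%) stood over 50 kb away from any protein-coding gene, against 19.7% of the kept regions. The 1632 lost regions that KMS34 held at day 0 had 7.17% at gene ends, 39.8% outside genes and 40.1% over 50 kb away. A position away from genes is therefore not particular to the KMS11-private lost regions. Taken per region, the longest gene that held it had a median length of 218 kb over 546 lost regions and 133 kb over 1442 kept regions. The median over all 19974 protein-coding genes was 24.2 kb with each gene counted once. That is not a like measure, because a long gene can count once for each region it holds. The share called was 90.6% ± 3.15 in NSD2LDD and 97.5% ± 3.54 in DMSO for the 40 regions that overlap a promoter window, and 81.4% ± 5.06 in NSD2LDD and 84.8% ± 4.24 in DMSO for the 423 outside genes (SD, n = 4 libraries each).

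**Figure D5:**
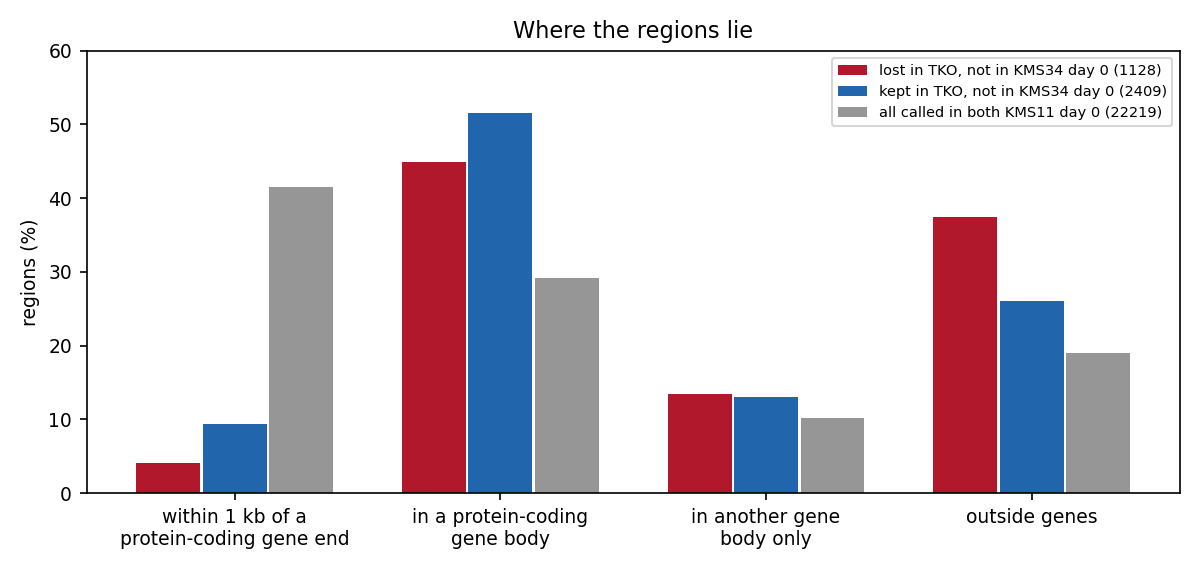
Bars give the percentage of regions in 4 places relative to RefSeq genes, for the 1128 KMS11-private lost regions (red), the 2409 KMS11-private kept regions (blue) and all 22219 regions called in both KMS11 day 0 libraries (grey). Gene ends hold 4.08% of the red and 41.5% of the grey regions.

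Seen by gene, 530 protein-coding genes held at least 1 of the regions in their body or within 5 kb either side, 64 held at least 2 and 13 at least 3. ARHGAP24, a GTPase-activating protein gene for Rac, and SNX9 held 4 each, and these are all the regions private to KMS11 at day 0 in those windows. The 4 in ARHGAP24 were called in every KMS11 NSD2LDD and DMSO library. The SNX9 window held no peak at all in either TKO library and 1486 and 1214 bp in KMS11 day 0. It held 2128, 2853, 2512 and 2868 bp in NSD2LDD and 2378, 2032, 1643 and 2723 bp in DMSO, so the groups overlapped. The promoter of SNX9, printed above, belongs to one of its 4 regions, which had 519, 559, 874 and 586 bp in NSD2LDD and 608, 587, 526 and 1255 bp in DMSO. With 3 regions each followed ADAMTS17, a secreted metalloprotease gene, AUTS2, a regulator of neural development, BNC2, a zinc finger gene, CDKAL1, a tRNA-modifying enzyme gene, CNTNAP2, a neurexin family gene, DLG2, a synaptic scaffold gene, OSBPL8, a lipid transfer gene, and RBM27. All 3 in AUTS2 and in DLG2 were called in every KMS11 NSD2LDD and DMSO library. In OSBPL8 each NSD2LDD library called 1 of the 3, and DMSO libraries called 2, 1, 1 and 1. Its window kept 2608 and 2607 bp of other peaks in TKO, against 3200 and 3334 bp in KMS11 day 0.

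The regions were then sorted by lists of genes. These lists were put together with earlier results of these data known, so the counts are descriptive. Over all protein-coding genes, 2.65% held a region. Of 36 axon guidance and neurotrophin receptor genes, which steer growing nerve fibres, 10 did (27.8%), with 12 of the 67 day 0 regions in their windows. Of 35 adhesion and cadherin genes 7 did (20.0%), and of 19 phosphodiesterase genes 4 did (21.1%). These genes are long, with medians of 322, 317 and 256 kb against 24.2 kb over all genes, and gene length was not accounted for. Of 20 receptor tyrosine phosphatase genes 2 held a region, of 38 ion channel and glutamate receptor genes 3, of 36 developmental transcription factor genes 2, of 19 B cell genes 1 and of 27 AP-1 and MAPK genes 1. No region fell in the windows of the genes tied to t(4;14) and NSD2, of the plasma cell, interferon and housekeeping lists, or of the marker lists for T and NK cells, myeloid cells, erythroid cells and megakaryocytes, and stromal and endothelial cells. Each of these lists had 14 to 23 matched genes and 6 to 29 day 0 regions in their windows. With so few, 0 cannot be told from the share of 2.65% over all genes. NSD2, FGFR3, MYC, CCND2, IRF4 and MAF held none, and of these IRF4 alone had a day 0 region that KMS34 lacked, so the others could not have held one.

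UNC5C, a netrin receptor gene, held 3 regions with a summed length of 916, 1208, 1072 and 1153 bp in NSD2LDD and 1234, 849, 899 and 945 bp in DMSO. TKO had none of it and KMS11 day 0 had 1304 and 879 bp, while KMS34 libraries of days 4 and 10 had 287 to 492 bp. SEMA5A, a semaphorin gene, had 831, 926, 275 and 248 bp in NSD2LDD and 922, 522, 474 and 671 bp in DMSO, with both day 10 NSD2LDD libraries below all DMSO libraries. The DCC region had 413 and 572 bp in NSD2LDD and 350 and 257 bp in DMSO at day 4, and no peak in either at day 10. That of SLIT2, a secreted guidance ligand gene, had a peak in 2 NSD2LDD and 3 DMSO libraries, and that of ROBO1, its receptor, in 1 NSD2LDD and 0 DMSO libraries. EPHA3, an ephrin receptor gene, and UNC5D were called in 4 of 4 libraries of both treatments.

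Among adhesion genes, the 2 regions in TENM4, a teneurin gene, summed to 1098, 1571, 607 and 1111 bp in NSD2LDD and 1380, 1312, 848 and 1191 bp in DMSO. TENM2 and CDH13, a cadherin gene that lacks the usual cytoplasmic tail, also held 2 regions each, and those of CDH13 had 276, 374, 168 and 444 bp in KMS34 NSD2LDD and 0, 190, 913 and 234 bp in KMS34 DMSO. PDE10A, which hydrolyses cyclic AMP and cyclic GMP, held 2 regions with 221, 601, 403 and 790 bp in NSD2LDD and 636, 243, 394 and 484 bp in DMSO. PDE8B was called in all 8 libraries and PDE1C in 3 NSD2LDD and all 4 DMSO libraries. PTPRO, a receptor tyrosine phosphatase gene, held 2 regions with 683, 731, 523 and 1043 bp in NSD2LDD and 894, 200, 907 and 1116 bp in DMSO. SLC4A4, a bicarbonate transporter gene, had 815, 928, 687 and 1024 bp in NSD2LDD and 789, 769, 594 and 1039 bp in DMSO. In all of these the treatments overlapped.

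Transcription factor genes of these lists held single regions. The region at the start of FOXA1, a pioneer factor gene of endoderm, had 775, 942, 381 and 788 bp in NSD2LDD and 791, 613, 370 and 1004 bp in DMSO, and the same region overlaps the promoter window of TTC6. The region in PAX5, the B cell lineage factor gene, had 287, 475, 163 and 0 bp in NSD2LDD and 232, 373, 387 and 635 bp in DMSO, with the day 10 libraries of NSD2LDD below those of DMSO. The region in CREB5, a bZIP factor gene, had 906, 904, 727 and 1059 bp in NSD2LDD and 1332, 946, 867 and 1204 bp in DMSO. SOX5 had a peak in all 4 NSD2LDD and in 3 DMSO libraries.

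At promoters, 40 of the regions overlapped 47 windows of 45 named genes. All 4 NSD2LDD libraries called 30 of them and all 4 DMSO libraries 37. TRPM3, a cation channel gene, had 544, 602, 730 and 602 bp in NSD2LDD and 793, 872, 727 and 1021 bp in DMSO (difference -0.42 ± 0.23 SE, limma adjusted p = 0.998). RNF217, a ubiquitin ligase gene, had 597, 590, 548 and 526 bp in NSD2LDD and 623, 689, 676 and 678 bp in DMSO, without overlap, at a difference of -0.22 ± 0.23 (adjusted p = 0.998). FMO1, a flavin monooxygenase gene, had 368, 528, 221 and 265 bp in NSD2LDD and 635, 495, 470 and 504 bp in DMSO (-0.54 ± 0.23, adjusted p = 0.918). PTGS2 had 384, 378, 293 and 512 bp in NSD2LDD and 630, 378, 173 and 648 bp in DMSO, and MCTP1 had 545, 415, 388 and 875 bp in NSD2LDD and 707, 471, 270 and 775 bp in DMSO.

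The promoter windows were searched on both strands, over their whole length, for the letters of 9 motifs, none of which contains another. The AP-1 motif, searched as TGANTCA and bound by FOS and JUN proteins, stood in 7 of the 47 windows (14.9%), in 17 of the 246 of the KMS11-private kept regions (6.91%), in 515 of the 13617 of all day 0 regions (3.78%) and in 7.68% of all 34961 promoters. The printed ACVR1 and MCTP1 windows are 2 of the 7, and GPR137B, a lysosomal membrane protein gene, is another. The SP and KLF motif, searched as CCGCCCC, stood in 38.3% of the 47, 44.7% of the kept, 52.9% of the day 0 and 30.9% of all windows, and is the one marked in the printed SNX9 window. The NF-Y motif, searched as CCAAT, stood in 40.4% of the 47, 34.6% of the kept, 35.6% of the day 0 and 34.6% of all windows. The TATA box, searched as TATAAA and marked in the printed PTGS2 window, stood in 10.6% of the 47, 6.10% of the kept, 4.43% of the day 0 and 11.5% of all windows. The E-box, searched as CACGTG, stood in 1 of the 47, in 27 of the 246 windows of the kept regions, and in 10.1% of the day 0 and 7.27% of all windows. The ETS motif, searched as CCGGAAGT, stood in 0 of the 47, 2.85% of the kept, 8.92% of the day 0 and 4.14% of all windows. The CRE motif, searched as TGACGTCA, stood in 0 of the 47, against 1.63%, 3.40% and 1.85% of those sets in the same order. The IRF motif stood in 6.38% of the 47 against 2.03%, 2.70% and 3.58%, and the NF-kappaB motif in 2.13% against 1.63%, 1.64% and 1.61%. The median GC content was 60.3% over the 47 windows, 64.0% over those of the kept regions and 66.3% over those of all day 0 regions. A match is a description of the letters and not a measured binding site.

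The share lost was set out by chromosome as a description, with no test. Of the 4075 KMS11 day 0 regions that KMS34 day 0 lacked, TKO lost 27.7% over the genome. It lost 35.6% on chromosome 12 (73 regions), 35.1% on chromosomes 4 (119) and 13 (33) and 33.3% on X (57). On chromosome 19 it lost 5.80% (4 regions), on 22 9.38% (6) and on 16 12.7% (14). A neighbour of the same kind within 50 kb was found for 128 of the 1128 regions, in 61 runs, and 1000 stood alone. The runs with most regions held 3 each, at CDKAL1, SNX9, ZMAT4, ADAMTS18 and LOC105369787. The 3 at SNX9 spanned 11.3 kb (chr6:157823096-157834381) and were called in every NSD2LDD and DMSO library of KMS11. Of the 3 at ZMAT4, each library of day 4 called 2 and each library of day 10 called 3, in NSD2LDD and in DMSO.

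In some places TKO lost all consecutive KMS11 day 0 regions, shared or private. The longest such row lies on chromosome 8 from KCNV1 through CSMD3 to TRPS1 (chr8:109953851-115428053), where 13 day 0 regions in a row over 5474 kb had no TKO peak, though 1 of them was private to KMS11. NSD2LDD libraries called 8 to 12 of the 13 and DMSO libraries 11 to 13. Between CTNND2, a catenin gene, and DNAH5, a dynein gene of cilia, 8 in a row were lost over 1594 kb, 4 of them private. NSD2LDD libraries called 7 to 8 and DMSO libraries all 8. Around DKK2, a Wnt antagonist gene, 8 in a row were lost over 910 kb, 4 of them private, and NSD2LDD libraries called 5 to 7 against 6 to 8 in DMSO libraries. Near TMEM182 and POU3F3 the row also held 8, of which NSD2LDD libraries called 5 to 7 and DMSO libraries 5 to 8. The merged regions come from all 22 libraries, KMS34 included. Of those in these spans, at least 1 TKO library called 5 of 263 on chromosome 8 and 1 of 38 between CTNND2 and DNAH5. Around DKK2 the count was 1 of 29 and near TMEM182 0 of 22. Both KMS11 day 0 libraries called only 13, 8, 8 and 8 of the merged regions in the same order, and both TKO libraries 3, 0, 0 and 0. The lists give no read depth, so fewer open sites and fewer copies of the DNA cannot be told apart there.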

How the data were processed

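ATAC-seq peak lists of 22 libraries of KMS11 and KMS34 were used, 1 list per library. Per the submitters' processing notes the tools were fastp, BWA, SAMtools, Picard, MACS3 and deepTools and the build hg38; no source used here gives their versions, the Tn5 shift, duplicate handling or calling settings. The deposited −log10 q of a peak ranked or filtered peaks within a list, and the deposited fold enrichment, a ratio, was only described. No list had read counts, so depth is unknown and no interval or floor is given. Peaks that overlap or touch were merged with numpy 2.4.6 in Python 3.11.15, checked against bedtools 2.31.1 on simulated intervals. Genes and promoters came from RefSeq, GRCh38.p14, matched by symbol, and the gene table gives no strand or exons.

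Covered bases were tested with limma 3.58.1 (trend, robust) in R 4.3.3, with 8 group means over the 16 libraries of days 4 and 10, over all regions called in at least 2 of them, with Benjamini-Hochberg adjustment at 0.05. The 6 day 0 libraries of the rule were left out. The fit was tested on simulated data. Regions were named by size of day 0 peak, size of difference, smallest p among calls, genes with most regions, gene lists, gene ends, patterns of calls and position relative to the rule's threshold. The regions, lists and tests were chosen with earlier results of these data known. Alternatives were other filters, scalings, added bases, list lengths, summit windows, merging distance, fits within KMS11, replicate number as a block, and leaving out each library. No pair of the 231 pairs of libraries held identical calls. Figures used matplotlib 3.10.9.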

Additional observations from a re-analysis of the deposited data

Results flagged for a closer look

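The difference between NSD2LDD and DMSO in KMS11 itself differed between day 10 and day 4 for 2 of the 1101 tested regions by an interaction term (limma, adjusted p under 0.05), against 0.0285% lower and 0.024% higher of all regions. Both had at least 1 group with no peak, so the size depends on the bases added. At the region 140 kb from EDIL3, an integrin ligand gene (chr5:84524462-84525299), the NSD2LDD effect at day 10 less that at day 4 was -4.32 (limma adjusted p = 0.0491). It had no day 10 peak in NSD2LDD and 196 and 234 bp in DMSO, and at day 4 it had 360 and 838 bp in NSD2LDD and no peak in DMSO. At the region 128 kb from SPANXN2 the value was -3.24 (adjusted p = 0.0491), with 340 and 371 bp in NSD2LDD and 525 and 876 bp in DMSO at day 10, and 499 and 439 bp in NSD2LDD and no peak in DMSO at day 4. Of 27 alternatives, 20 lost the EDIL3 call and 21 the SPANXN2 call, and in KMS11 libraries alone both had an adjusted p of 1.00.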

How the results depend on the processing

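Peaks without counts limit every value: an uncalled region may be open but shallow. The set held 915 regions with peaks of −log10 q of at least 5, 1224 with lists of equal length, 1243 by summits, 1127 with a 100 bp merging gap and 1052 with 25% cover, and the difference in share stayed between -5.74 and -3.37 points. These settings choose the regions anew, so their counts of calls are over other sets. The 363 of 1128 regions called in any KMS34 library became 187 of 1224 with lists of equal length, and the 830 calls between the lines stayed within 1.5 times throughout. The other counts are calls over both directions among the tested regions. For NSD2LDD against DMSO, 0 in the reported fit, they were 2 with no scaling, 14 with quantile normalization, 13 with 30 bases added, 1 each with regions called in at least 4 libraries, with all 22 libraries and with −log10 q of at least 5, 18 without trend and robust fitting and 32 with lists of equal length. At day 4 (4 reported) the same settings gave 7, 12, 11, 2, 7, 2, 11 and 16. At day 10 (8 reported) they were 18 with no scaling, 21 with quantile normalization, 26 with 30 bases, 17 with all 22 libraries, 26 without trend and robust fitting and 36 with equal lists. For the change of the effect between days (2 reported) they were 10 with quantile normalization, 8 with 30 bases, 19 without trend and robust fitting, 0 with −log10 q of at least 5 and 29 with equal lists. Over time in DMSO (8 reported) they were 16 with no scaling, 24 with quantile normalization, 21 with 30 bases, 16 with all 22 libraries, 20 without trend and robust fitting and 31 with equal lists, and in NSD2LDD (28 reported) 75 with equal lists. In KMS34 (1 reported) they were 3 with no scaling, 3 with quantile normalization, 9 with 30 bases, 4 with all 22 libraries, 7 without trend and robust fitting, 2 with −log10 q of at least 5 and 4 with equal lists. The difference between the lines (0 reported) had 1 without trend and robust fitting and 5 with equal lists. With 300 bases added or no filter, days 4 and 10, their difference and KMS34 had 0, time in DMSO 0 and 1, and time in NSD2LDD 5 and 5. With the KMS11 libraries alone all 6 KMS11 comparisons had 0. Calls over all regions in the reported fit were 29 lower and 29 higher for both days together. They were 127 and 153 at day 10, and 122 and 73 over time in DMSO. In that order they were 32 and 51, 163 and 185, and 224 and 131 with no scaling. With quantile normalization they were 213 and 228, 220 and 256, and 262 and 178. With 30 bases they were 134 and 192, 219 and 255, and 301 and 176. With all 22 libraries they were 22 and 26, 109 and 136, and 149 and 91. Without trend and robust fitting they were 181 and 260, 201 and 254, and 282 and 174. With equal lists, over 39090 regions, they were 157 and 154, 191 and 171, and 165 and 204. For the other comparisons the calls over all regions in these settings are not given here. The counts among the KMS11-private lost regions are to be read beside these totals. The cause of the changes between settings was not tested.

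The labels do not say that a replicate number marks a shared culture. The correlation of deviations of same-numbered libraries was 0.209 between NSD2LDD and DMSO at KMS11 day 10, where they also shared peak width, ran from -0.0171 to 0.0684 for the other KMS11 pairs and from -0.127 to 0.0881 in KMS34, so the numbers did not pair the libraries throughout. With the replicate number as a block, day 10 had 12 regions lower and 5 higher of all tested, against 127 and 153 without it, and among the KMS11-private lost regions the calls were 0 for both days together, day 4, day 10, their difference, time in DMSO, KMS34 and the difference between lines, 5 for time in NSD2LDD and 699 between the lines. Leaving out 1 library gave 1128 to 4829 regions chosen, -6.09 to -1.96 points, 1101 to 3647 regions called in any KMS11 and 326 to 1489 in any KMS34 library. The calls ran from 0 to 1 for both days together, 0 to 3 at day 4, 3 to 7 at day 10, 0 to 1 for their difference, 0 to 10 over time in DMSO, 0 to 38 over time in NSD2LDD, 756 to 826 between the lines, 1 to 5 in KMS34 and 0 to 0 for the difference between lines. Where a group keeps 1 library, that library is assumed to vary like the others. Of the named regions' values, 588 kept their direction and side of the threshold, 156 lost the call, 10 gained it and 2 had the other sign. Both of these are at MTHFD1L with lists of equal length, at -0.057 over both days and -0.024 at day 4, and the day 4 value is the scaling offset of a region with no peak in either treatment, not a measured turn.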
